A study of Mus musculus with 4 samples.

Results

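NR6A1 peaks were examined at the loci of 4 transcription factors that direct bone, fat and cartilage cell fates: Runx2, Runx1, Pparg and Sox9. Members were all deposited peaks whose midpoint fell in a fixed window around each gene on the mouse build mm9, without use of peak scores. Of the 21507 peaks of replicate 1, 54 were members, and of the 16160 peaks of replicate 2, 41 were, so that 95 of 37667 peaks were included. The peaks come from chromatin immunoprecipitation with sequencing (ChIP-seq), which recovers DNA fixed to a protein. Both libraries (n = 2) were made from an immortalized murine mesenchymal stem cell (MSC) line of strain C57BL/6, genotype Dicer f/f (floxed Dicer, labelled Dicer WT). The cells carried a retrovirus, pMMP-puro-Flag-HA-NR6A1, were selected with puromycin, and were precipitated with an anti-HA antibody. The sites are thus those of a tagged NR6A1 delivered by virus, in monoclonal cells. The labels do not say whether the replicates were separate cultures, so their spread may be technical. Values of the 2 vector libraries of the same line were not used here, and no antibody background stands beside the counts. No expression was measured in these libraries, so the labelled cell type was not checked against markers.

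NR6A1, or germ cell nuclear factor, is an orphan nuclear receptor that acts mainly as a repressor and binds direct repeats of the core motif AGGTCA with no spacer. RUNX2 is the factor that osteoblasts need to form. Its paralog RUNX1 is best known from blood stem cells and is also expressed in mesenchymal and early cartilage cells. PPARG is the nuclear receptor at the centre of fat cell differentiation, and SOX9 directs cartilage formation. Mesenchymal stem cells are defined by their ability to give rise to bone, fat and cartilage cells, which is why these genes are read together.

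Promoter sequences are shown for the genes in which the core motif was found, to give the letters that a receptor of this family could meet at a start site. The RefSeq table (build GRCm38.p6) held 6 promoters for Runx2, Runx1 and Pparg, and none was matched for Sox9. The letters AGGTCA were searched on both strands from 250 bases before to 50 bases after each start. They occurred in 3 of these 6 promoters, and in 16.3% of all 32851 promoters of the table. The longer form TCAAGGTCA, which contains AGGTCA, occurred in 0 of the 6 and in 0.423% of all promoters. AGGTCA repeated with no spacer occurred in 0 of the 6 and in 2 of all 32851. The 250 bases before the start are printed for those with a match, 5′ to 3′ on the strand of the gene, with AGGTCA in capitals:

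Runx2, chr17:44814628-44814877, minus strand: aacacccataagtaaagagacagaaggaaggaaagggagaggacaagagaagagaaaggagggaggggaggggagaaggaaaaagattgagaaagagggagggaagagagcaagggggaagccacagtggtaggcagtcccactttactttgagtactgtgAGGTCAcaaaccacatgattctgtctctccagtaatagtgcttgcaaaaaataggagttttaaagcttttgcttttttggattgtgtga
Pparg, first promoter of the table, chr6:115360894-115361143, plus strand: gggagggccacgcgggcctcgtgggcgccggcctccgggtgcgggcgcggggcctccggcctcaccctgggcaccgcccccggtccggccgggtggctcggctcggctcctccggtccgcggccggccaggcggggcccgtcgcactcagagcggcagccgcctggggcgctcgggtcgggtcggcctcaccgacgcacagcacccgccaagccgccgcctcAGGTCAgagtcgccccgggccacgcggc
Pparg, second promoter of the table, chr6:115362099-115362348, plus strand: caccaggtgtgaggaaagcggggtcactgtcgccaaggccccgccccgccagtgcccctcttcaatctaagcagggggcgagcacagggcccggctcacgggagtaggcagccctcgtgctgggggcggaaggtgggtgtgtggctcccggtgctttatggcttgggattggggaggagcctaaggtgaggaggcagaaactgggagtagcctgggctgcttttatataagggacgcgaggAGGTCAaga

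The match began at position -89 from the start in Runx2, and at -28 and -9 in the first and second Pparg promoters. These coordinates are of GRCm38.p6, whereas all peaks below are on mm9. Coordinates were not moved between builds, so no peak was placed on these promoters, and a match describes letters, not a site. Whether a peak lies in an exon, an intron or between genes was likewise not analysed here. By the order of genes in the GRCm38.p6 table, Runx2 overlaps the gene Supt3, so that a peak in the Runx2 window may lie in either gene.

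All 4 loci were denser in NR6A1 peaks than the autosomes in both replicates. The windows and genes were chosen with earlier results of these data known. The comparisons with autosomes, tiles and flanks therefore describe these windows and test nothing. The Runx2 window, 420 kb on chromosome 17 from 44580000 to 45000000, held 21 peaks in replicate 1 and 16 in replicate 2. That is 50.0 and 38.1 peaks per Mb, or 44.05 ± 8.42 (SD, n = 2). The Runx1 window, 330 kb on chromosome 16 from 92550000 to 92880000, held 14 and 10 peaks, or 36.4 ± 8.57 per Mb. The Pparg window, 230 kb on chromosome 6 from 115260000 to 115490000, held 8 and 6 peaks, or 30.4 ± 6.15 per Mb. The Sox9 window, 500 kb on chromosome 11 from 112400000 to 112900000, held 11 and 9 peaks, or 20 ± 2.83 per Mb. The order Runx2, Runx1, Pparg, Sox9 was the same in each replicate. Both Runx2 values lay above both Sox9 values, whereas the values of neighbours in the order overlapped between replicates for Runx2 and Runx1 and for Runx1 and Pparg, but not for Pparg and Sox9. The lists differ in length, and this overlap and the SD include that difference. With lists of equal length the SD was 1.68 at Runx2, 2.14 at Runx1, 6.15 at Pparg and 4.24 at Sox9.

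**Figure D1:**
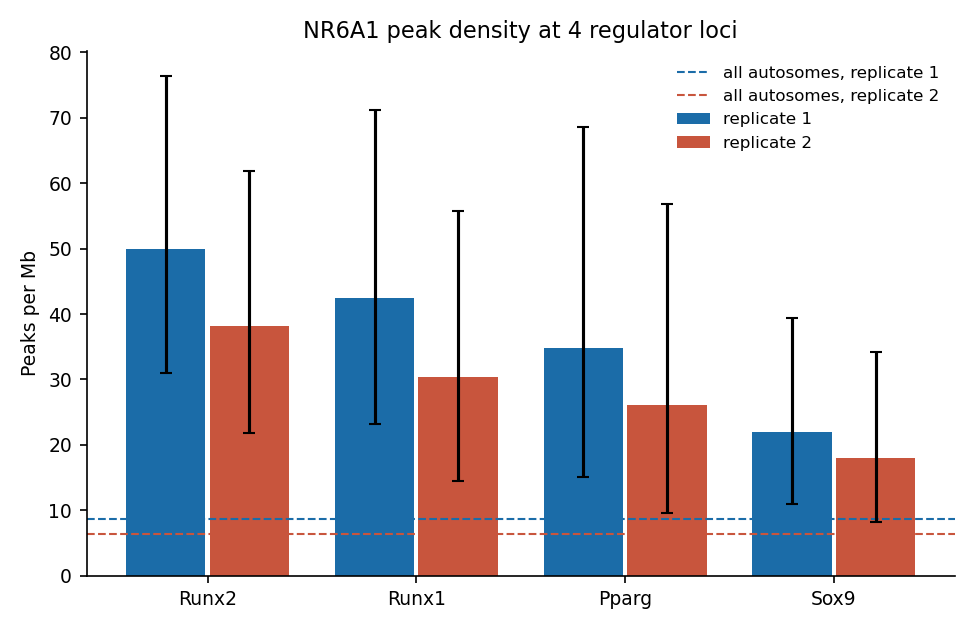
Peaks per Mb in the window of each locus, with 1 bar for each replicate. Error bars are exact 95% Poisson intervals of the peak count, and dashed lines give the density of all autosomes, 8.59 per Mb in replicate 1 and 6.43 in replicate 2. Every bar stands above the line of its own replicate, and the intervals of all loci overlap.

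Counting error is wide at these numbers. The exact 95% Poisson interval of the Runx2 density was 31.0 to 76.4 peaks per Mb in replicate 1 and 21.8 to 61.9 in replicate 2. For Sox9 it was 11.0 to 39.4 and 8.23 to 34.2, so the intervals of the densest and the sparsest of these loci overlapped. They cover counting error only and treat peaks as independent, although peaks gather in these lists. The order also moved with the setting: with every window 50 kb narrower on both sides, Pparg had 15.4 per Mb in each replicate, below the 20 of Sox9 in replicate 1, and Runx1 passed Runx2 there with 60.9 against 59.4. With the upper 50% of each list by score, Pparg came before Runx1 in both replicates. No p-value between loci is given, since peaks of 1 library are not replicates.

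Against the autosomes, Runx2 was 5.82-fold denser in replicate 1 and 5.93-fold in replicate 2. Runx1 was 4.94-fold and 4.72-fold denser, Pparg 4.05-fold and 4.06-fold, and Sox9 2.56-fold and 2.80-fold. The lower Poisson limits of these ratios ranged from 1.28 at Sox9 in both replicates to 3.60 at Runx2 in replicate 1. Replicate 1 had more peaks than replicate 2 at every locus, by 1.31-fold at Runx2, 1.40-fold at Runx1, 1.33-fold at Pparg and 1.22-fold at Sox9. The whole lists differed by 1.33-fold in the same direction.

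Autosomal tiles of 0.5 Mb gave the background for these densities. In replicate 1, 0.405% of 4936 tiles were at least as dense as the Runx2 window, 0.831% as Runx1, 2.63% as Pparg and 13.0% as Sox9. In replicate 2 the shares were 0.446%, 1.62%, 2.80% and 10.7%. The Sox9 density was thus one that more than 1 tile in 10 reached. The tiles include gene deserts, and short windows scatter more than long ones, so the shares depend on the tile. With tiles of 0.25 Mb, nearer to the width of the Pparg window, the mean share of the replicates was 5.19% for Pparg, 2.98% for Runx1 and 1.29% for Runx2.

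The placing of peaks within the windows differed between loci. At Runx2, neighbouring midpoints lay a median of 7.81 kb apart in replicate 1 and 8.14 kb apart in replicate 2. The peaks were not spread evenly. In replicate 1, 11 of 21 lay between 44790010 and 44874869. In replicate 2, 8 of 16 lay between 44843257 and 44943942. All 16 Runx2 peaks of replicate 2 and 19 of 21 in replicate 1 lay within 10 kb of a second peak in their list, where the whole lists had 42.9% and 47.2% such peaks. A denser window also raises this count. The Runx1 counts were 8 of 14 and 6 of 10, the Pparg counts 2 of 8 and 3 of 6, and the Sox9 counts 7 of 11 and 3 of 9. These shares stood above the list in both replicates at Runx2 and Runx1, and on different sides of it in the 2 replicates at Pparg and Sox9. Median spacing was 13.7 and 13.8 kb at Runx1, 23.8 and 30.6 kb at Pparg, and 15.3 and 21.5 kb at Sox9.

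**Figure D2:**
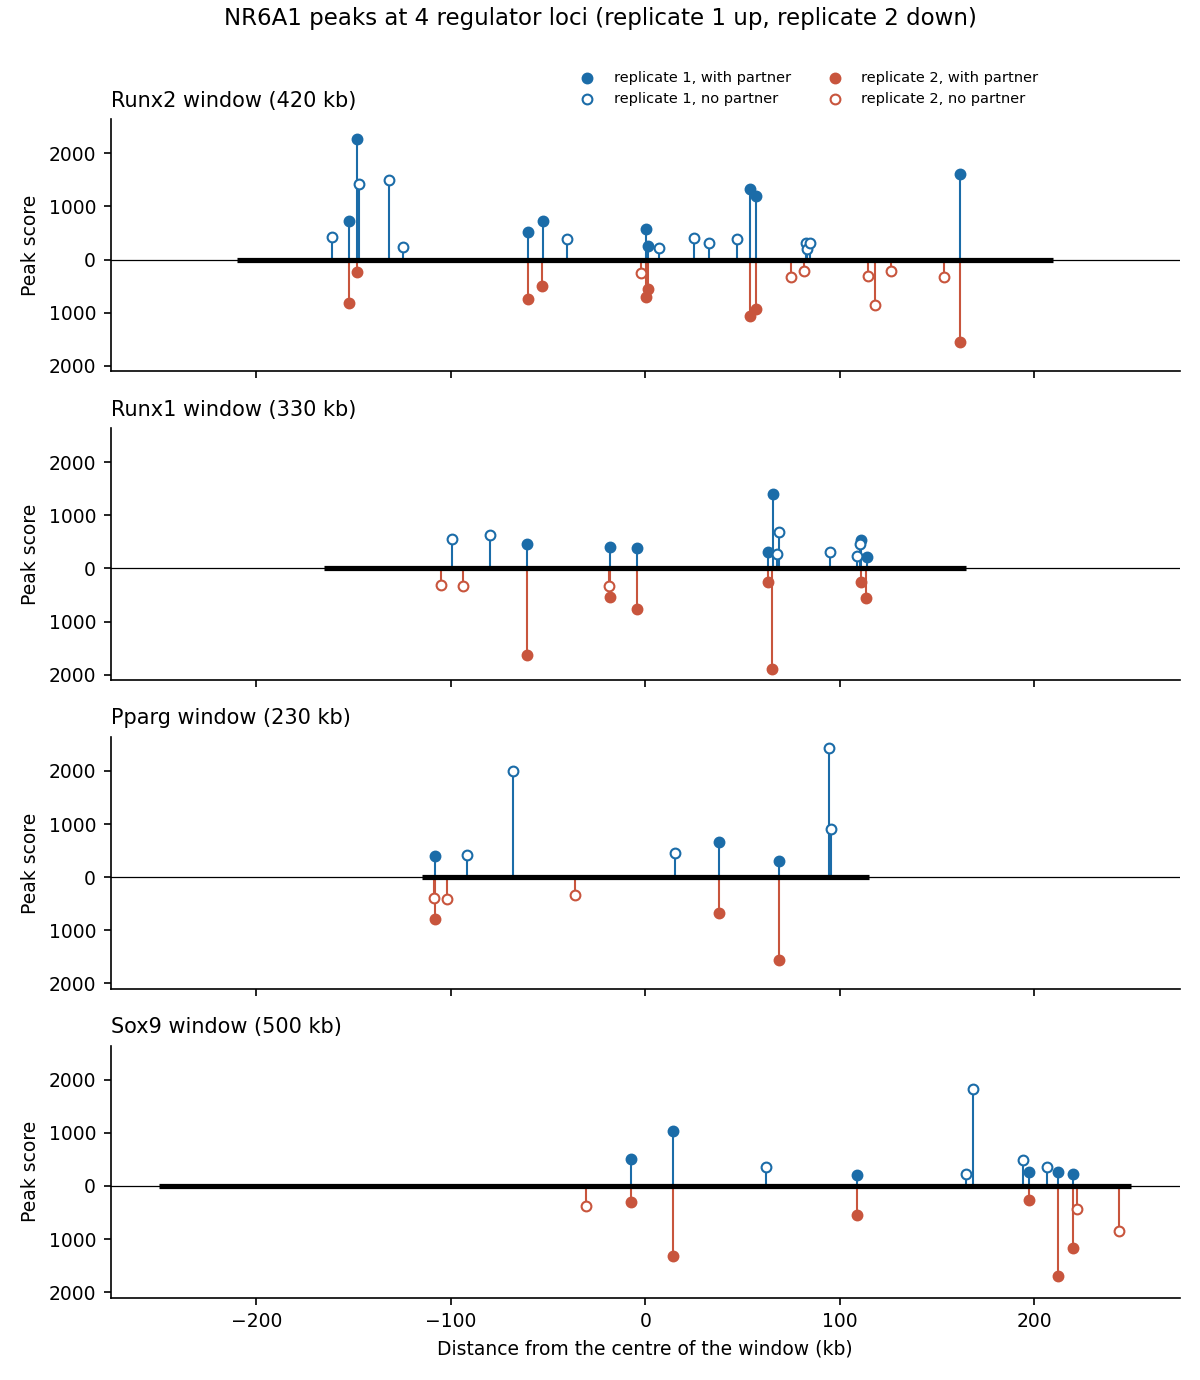
Peaks of replicate 1 (upward) and replicate 2 (downward) by distance from the centre of each window in kb, with height giving the authors' peak score. Filled circles have a partner in the other list, open circles have none, and the thick line spans the window. The left part of the Sox9 window is empty in both replicates, and the tall open circles at Pparg belong to replicate 1.

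The Sox9 window had its peaks on one side. No peak midpoint lay in its first 243 kb in replicate 1 or its first 220 kb in replicate 2, and 7 of the 11 replicate 1 peaks lay between 112814679 and 112870263. At Runx1, 9 of the 14 replicate 1 peaks lay between 92778142 and 92829098. In replicate 2, no 100 kb of the window held more than 5 of the 10 peaks, as between 92609397 and 92697246. Replicate 2 peaks also lay in the replicate 1 stretch. They were in the shared regions 92778135 to 92778674, 92780024 to 92780976, 92825953 to 92826528 and 92827921 to 92829098. Both Runx1 lists left the same gap of 67.7 kb between midpoints, beside the shared regions at 92710394 to 92710974 and 92778135 to 92778674. At Runx2 the longest gaps differed, 77.2 kb in replicate 1 and 87.8 kb in replicate 2. Replicate 2 had 4 peaks in the stretch after 44874869 where replicate 1 had none before its last peak.

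The window edges decide membership, so the peaks beside them are given here. At Runx2 and Runx1 the outermost members lay 48.2 to 65.6 kb inside the edges, and the nearest peaks outside lay 50.5 to 169 kb beyond. At Pparg the first members lay 6.96 and 6.13 kb inside the left edge, with scores of 401.69 and 389.51, and the nearest outside peaks lay 37.9 and 25.7 kb beyond it, with scores of 228.81 and 418.48. At Sox9 the nearest outside peaks were 6.36 kb left of the window in replicate 1, with a score of 469.32, and 24.7 kb right of it in replicate 2, with a score of 883.52. The last Sox9 member of replicate 2 lay 6.16 kb inside, with a score of 838.41.

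A peak had a partner if at least 1 bp of it overlapped a peak of the other list. Of the 54 member peaks of replicate 1, 25 or 46.3% had a partner, against 42.7% of the whole list. Of the 41 of replicate 2, 25 or 61.0% had one, against 56.0% of the whole list. Both shares are near those of the whole lists. Merged, the members formed 70 regions, of which 25 were in both lists (35.7%), 29 in replicate 1 only and 16 in replicate 2 only.

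By locus, 9 of 28 Runx2 regions were in both lists, or 32.1% (95% Wilson interval 17.9 to 50.7%). At Runx1 it was 7 of 17, or 41.2% (21.6 to 64.0%), at Pparg 3 of 11, or 27.3% (9.75 to 56.6%), and at Sox9 6 of 14, or 42.9% (21.4 to 67.4%). The whole series had 31.7%, which lies inside each of these intervals. No test of the difference between loci was run, and the intervals of all loci overlap. The order turned with the score limit: in the upper 50% of each list, 7 of 13 Runx2 regions were shared (53.8%), 2 of 10 at Runx1 (20%), and 1 of 9 (11.1%) at Pparg and at Sox9. The share over the whole series in the upper 50% was not computed, so these values have no background beside them. Regions in both lists came at 21.4 per Mb at Runx2, 21.2 at Runx1, 13.0 at Pparg and 12.0 at Sox9. These values combine the peak density and the share already given, so they are no separate result on sharing. The density of shared regions over the whole series was not computed.

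The Sox9 share rested on weak peaks of replicate 1. In 4 of its 6 shared regions the replicate 1 score was below 300, where the lowest scores of the lists are 200.01 and 200.04. With replicate 1 reduced to the length of replicate 2, which removes scores below 278.74, 2 of 13 Sox9 regions were shared, or 15.4%. Runx2, Runx1 and Pparg had 32.0%, 40.0% and 27.3% under that setting. The share over the whole series was not computed under it.

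The Runx2 shared regions had the lowest median difference in score between the replicates of these loci, but also the region with the largest difference of all 25. The most even single regions were at Sox9 and Pparg. The score is the authors' value for each peak, taken as MACS's transformed p-value. It depends on the depth and background of its library, so ratios between the replicates include those, and depth is unknown. The region on chromosome 17 from 44951205 to 44952343 had a score of 1608.91 in replicate 1 and 1551.14 in replicate 2, the highest Runx2 score of replicate 2. It was also the last member of the window on that side in both lists. The region from 44843257 to 44844200 had 1336.93 and 1051.96, and its neighbour from 44846581 to 44847279 had 1199.96 and 932.31. In these regions the replicates differed by less than 1.3-fold.

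Runx2 regions of middle score were also close. The region from 44637159 to 44637963 scored 723.39 and 824.47, and that from 44736797 to 44737830 scored 735.44 and 496.6. The region from 44729091 to 44730135 scored 522.05 and 744.79, and that from 44790010 to 44790568 scored 577.43 and 702.04. In all, 7 of 9 Runx2 shared regions had scores within 2-fold of each other. The exceptions were 44791235 to 44791855, with 247.78 and 549.93, and 44641306 to 44642259. The latter held the highest Runx2 score of replicate 1, 2266.16, and only 229.94 in replicate 2, a 9.86-fold difference.

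That discordant Runx2 region stood in a stretch of replicate 1 peaks. The peak next to it, 44642358 to 44643030, scored 1418.36 in replicate 1, and its midpoint was 0.902 kb from the nearest replicate 2 peak without overlapping it. A further peak from 44657441 to 44658440 scored 1494.28, with the nearest replicate 2 midpoint 16.1 kb away. Of the 6 Runx2 peaks of replicate 1 with a score of 1000 or more, 2 had no partner, and both such peaks of replicate 2 had one. Over the whole lists, 37.8% of 3424 such peaks in replicate 1 and 12.4% of 2264 in replicate 2 had no partner, so the Runx2 counts are near that background. Replicate 2 alone held 7 Runx2 regions, with scores of 210.81 to 844.87, the highest at 44907767 to 44908332.

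At Runx1 the strongest peak was the same in both lists. The region on chromosome 16 from 92780024 to 92780976 had the highest score of each list, 1394.42 in replicate 1 and 1889.16 in replicate 2, and was the only Runx1 region at 1000 or more in both. Beside it lay a weaker shared region from 92778135 to 92778674, with 311.76 and 247.21. The next Runx1 region by replicate 2 score was 92653931 to 92654758, with 1630.74 against 466.21 in replicate 1, a 3.50-fold difference.

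The other Runx1 shared regions had lower scores. They were 92710394 to 92710974 with 392.04 and 756.32, 92696599 to 92697246 with 411.36 and 530.83, and 92825953 to 92826528 with 541.46 and 259.8. The last, 92827921 to 92829098, scored 205.98 and 550.57, and its midpoints lay 392 bp apart, the widest offset of all 25 shared regions. Of the 7 Runx1 shared regions, 4 had scores within 2-fold, and 5 scored higher in replicate 2. The 7 regions of replicate 1 only scored 226.38 to 690.35, and the 3 of replicate 2 only scored 303.81 to 334.05, so no Runx1 peak at 1000 or more lacked a partner.

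At Pparg the strongest peaks of replicate 1 had no partner in replicate 2. The peak on chromosome 6 from 115469349 to 115470013 had a score of 2425.74, the highest of all 95 members, and no replicate 2 peak had its midpoint within 25.9 kb. A neighbour from 115470079 to 115470760 scored 909 and also lacked a partner. The peak from 115306456 to 115307475 scored 1999.89, with the nearest replicate 2 midpoint 32.1 kb away. Both Pparg peaks of replicate 1 at 1000 or more were thus without partner, a count of 2 beside the 37.8% of such peaks in the whole list.

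The 3 Pparg shared regions did not include those peaks. The region from 115412703 to 115413556 had nearly equal scores, 666.8 and 670.04. The region from 115266521 to 115267408 scored 401.69 and 785.36. The region from 115443196 to 115444398 scored 300.44 in replicate 1 and 1566.07 in replicate 2, where it was the highest Pparg score, a 5.21-fold difference. No Pparg region reached 1000 in both lists. Their midpoints were 2, 109.5 and 198.5 bp apart, so that with midpoints required within 100 bp 1 of 13 Pparg regions was shared, or 7.69%. The share over the whole series was not computed with that limit.

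Sox9 had a single region that was strong in both lists. The region on chromosome 11 from 112664126 to 112664877 scored 1025.13 in replicate 1 and 1321.01 in replicate 2. The region from 112642520 to 112643196 scored 502.98 and 307.04. Toward the right edge, 112862120 to 112862878 scored 272.08 and 1690.48, and 112869719 to 112870463 scored 223.54 and 1170.7, which is 6.21-fold and 5.24-fold higher in replicate 2. The regions at 112758814 to 112759358 and 112847167 to 112847892 had 211.41 and 548.85, and 259.77 and 259.58. The strongest Sox9 peak of replicate 1, 112818111 to 112818984 with 1830.83, had no partner, and the nearest replicate 2 midpoint was 29.0 kb away.

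**Figure D3:**
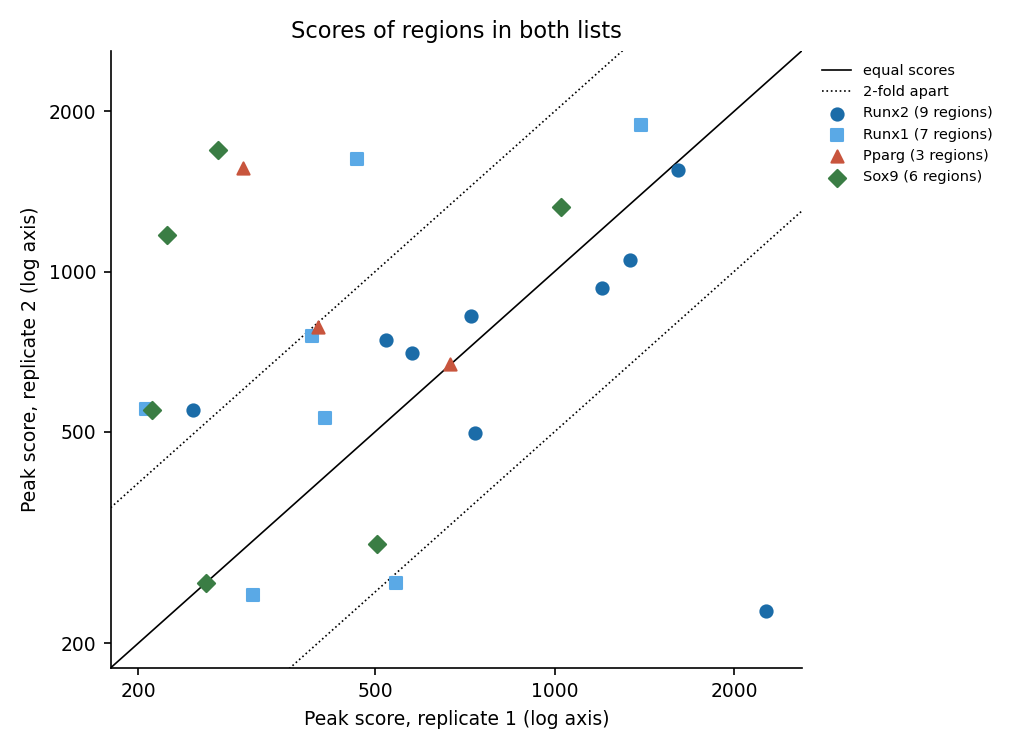
Peak score in replicate 1 against replicate 2 for the 25 regions in both lists, on log axes, with 1 point for each region. The solid line marks equal scores and dotted lines a 2-fold difference. Of the 9 Runx2 regions, 7 lie between the dotted lines, and the point at the lower right is the Runx2 region with 2266.16 and 229.94.

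Over the 25 shared regions, 16 or 64.0% had scores within 2-fold, against 66.3% of the 9009 regions shared over the whole series. The median absolute log2 ratio was 0.36 at Runx2, 0.95 at Runx1, 0.97 at Pparg and 1.04 at Sox9, and 0.68 over the whole series. Scores were higher in replicate 2 in 16 of the 25 and higher in replicate 1 in 9. In 4 regions both scores were 1000 or more, of which 2 were at Runx2, 1 at Runx1 and 1 at Sox9. The midpoints of the 2 lists lay a median of 33.0 bp apart, and over 100 bp apart in 5 of 25. Direction, scores of 1000 or more in both lists and midpoint distance were not counted over the whole series. Whether these loci differ from the lists in them is thus not known.

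The members had a median score of 422 in replicate 1, near the list median of 417, and of 531 in replicate 2, above the list median of 394. The Runx2 peaks had scores of 207.29 to 2266.16 with a median of 421 in replicate 1, and 210.81 to 1551.14 with a median of 523 in replicate 2. The Runx1 peaks had 205.98 to 1394.42 with a median of 434, and 247.21 to 1889.16 with a median of 432. The Pparg peaks had 300.44 to 2425.74 with a median of 563, and 339.98 to 1566.07 with a median of 536. The Sox9 peaks had 211.41 to 1830.83 with a median of 352, and 259.58 to 1690.48 with a median of 549. All 4 medians of replicate 2 were above that of the list, by the least at Runx1, and the Sox9 median of replicate 1 was below it. The ranges of all loci overlapped in both replicates, and no member reached 3100, the most common score in the replicate 1 list.

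The share of strong peaks among the members was near that of the lists. In replicate 1, 11 of 54 member peaks had a score of 1000 or more, or 20.4%, against 15.9% of the list. In replicate 2 it was 8 of 41, or 19.5%, against 14.0%. Of the 11 in replicate 1, 5 had no partner, 2 at Runx2, 2 at Pparg and 1 at Sox9, and 0 of the 8 in replicate 2 lacked one. With shares of 37.8% and 12.4% over all strong peaks of the lists, these counts are near the background. The replicate 2 members with a partner ranked higher than those without at each locus, with medians of 745 against 312 at Runx2, 551 against 326 at Runx1, 785 against 390 at Pparg and 860 against 439 at Sox9. In replicate 1 this held at Runx2 only, with 735 against 350. At Runx1, Pparg and Sox9 the peaks without a partner had the higher median, 456 against 411, 909 against 402 and 363 against 266. The groups were small. At Pparg, 3 peaks with a partner stood against 5 without in replicate 1, and 3 against 3 in replicate 2. Medians by partner were not computed over the whole lists, so whether these loci differ from the lists is not known.

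**Figure D4:**
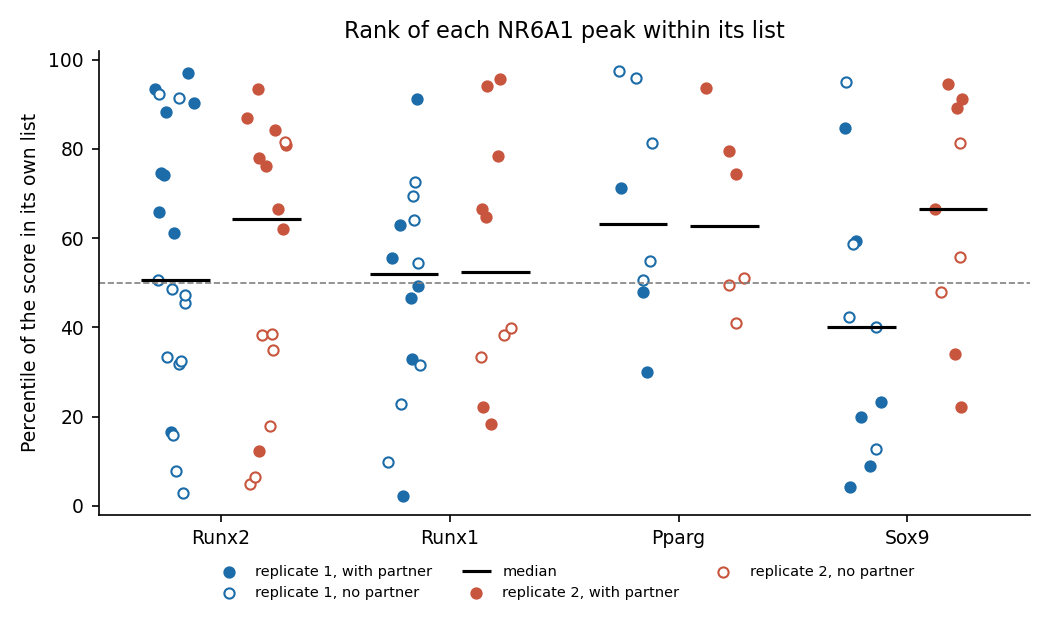
Percentile of the score of each member peak within its own list, by locus and replicate, with filled circles for peaks that have a partner and open circles for those without. Black bars are medians and the dashed line is the middle of the list. The Sox9 median is at 40.1 in replicate 1 and at 66.4 in replicate 2, the widest gap between replicates among these loci.

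Peak widths gave the covered length. Peaks filled 3.30% of the Runx2 window in replicate 1 and 2.58% in replicate 2, 2.41% and 2.25% at Runx1, 2.52% and 1.95% at Pparg, and 1.21% and 1.28% at Sox9. These shares include the peak density given above. The share of the autosomes filled by peaks was not computed. The median Runx2 peak was 596 bp wide in replicate 1 and 571 bp in replicate 2, and the median Sox9 peak 489 and 745 bp, against 538 and 613 bp for the lists. Sox9 was the one locus with more bases in peaks in replicate 2, 6400 bp against 6065 bp, although it had fewer peaks there.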

How the data were processed

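The deposited files were 2 peak lists, 1 for each NR6A1 library, with a chromosome, start, end, MACS peak name and score for each peak. The authors' score was used as deposited. It was taken as MACS's transformed p-value from its range, which is not stated. The submitters' processing notes name Bowtie 0.12.7, MACS and the build mm9, with no role for each. The MACS version, the control library and the threshold are not given in the sources used here. Read depth is unknown. The windows, genes and lists were chosen with earlier results of these data known.

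Starts were converted to count the first base as 1. Peaks were assigned by midpoint. Partners overlapped by at least 1 bp (Python 3.11.15, pandas 2.3.3, with the same counts from bedtools 2.31.1), and linked partners were merged into regions. Poisson and Wilson 95% intervals came from scipy 1.17.1 and cover counting error only. Chromosome lengths of mm9 came from GenomeInfoDb 1.38.1. The overlap code was tested on simulated data. With 2 lists of 1 group, no test was run. Every shared region is named, with the highest peak of each list. Other peaks were chosen after their values were seen. Alternatives changed the window, the partner definition, the score limit, the list length and the tile.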

Additional observations from a re-analysis of the deposited data

How the results depend on the processing

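The alternatives gave 96 values, of which 65 were counted as the same and 31 as moved. The limit was the SD of the 2 lists, or the Wilson interval for shares of regions. Rank percentiles were instead counted as the same if they stayed on the same side of the middle of the list. Leaving out a replicate could not move a density, since with 2 lists each value lies within the SD of their mean. Leaving out peaks at or above 3100 changed no value, as no member reached that score. The 65 thus include values fixed in advance. The order of the loci turned under some: narrower windows put Runx1 above Runx2 and Sox9 above Pparg in replicate 1, and the upper 50% put Pparg above Runx1 in both replicates and Runx2 first in sharing. Equal list lengths put Pparg above Runx1 in replicate 1. Windows 50 kb narrower on both sides gave mean densities of 53.1 (Runx2), 52.2 (Runx1), 15.4 (Pparg) and 16.2 (Sox9) peaks per Mb. Windows 50 kb wider gave 35.6 at Runx2. Windows all reduced to 230 kb, a width chosen after seeing the data, gave 52.2 at Runx1, tied with Runx2. The upper 50% of each list by score gave 23.8, 18.2, 21.7 and 10 per Mb, lower by construction, and equal list lengths gave 15 at Sox9. Leaving out replicate 1 or replicate 2 gave 38.1 to 50.0 per Mb at Runx2, 30.3 to 42.4 at Runx1, 26.1 to 34.8 at Pparg and 18 to 22 at Sox9. The share of regions in both lists was 53.8% at Runx2, 20% at Runx1 and 11.1% at Pparg and at Sox9 in the upper 50%, 15.4% at Sox9 with equal list lengths, and 7.69% at Pparg with midpoints within 100 bp. No whole-series share was computed under these settings. Among peaks with a partner the mean of the replicate medians of the score was 740 at Runx2, 481 at Runx1 and 594 at Pparg, and with wider windows it was 430 at Pparg and 595 at Sox9. The share of tiles as dense was 1.29%, 2.98% and 5.19% for Runx2, Runx1 and Pparg with 0.25 Mb tiles. With 1 Mb tiles it was 0.0406%, 0.325%, 1.12% and, for Sox9, 8.38%. On the own chromosome it was 0.789%, 0.510% and 2.51% for Runx2, Runx1 and Pparg. Joining peaks of a list within 1 kb, also chosen after seeing the data, moved no value beyond its limit. Beyond the construction of each setting the cause was not tested. No paired analysis was possible because only the NR6A1 libraries entered, as a single group. With 11 to 28 regions a locus and no read counts, a peak missing from a list cannot be told from one just below its threshold.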

Other observations

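The 300 kb on either side of each window were counted after the members had been seen. At Runx2 the flanks held 7 and 7 peaks in replicate 1 and 3 and 1 in replicate 2, or 23.3 and 6.67 per Mb, against 50.0 and 38.1 inside the window. At Runx1 the flanks had 15 and 6.67 per Mb, and at Pparg 8.33 and 1.67 per Mb. At Sox9 they had 11.7 and 13.3 per Mb, against 22 and 18 inside. The windows were denser than their flanks at every locus in both replicates, by the least at Sox9 in replicate 2. They had been chosen with earlier results of these data known, so this is a description only.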
